A study of Homo sapiens with 20 samples.

Results

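The libraries examined here ask what an siRNA against KLF10 does to A549 cells that are also exposed to TGFβ. A549 is a human lung adenocarcinoma cell line. All 4 libraries came from cells given TGFβ at 5 ng/ml for 72 h: 2 are labelled TGFb (A and B) and 2 are labelled siKLF10+TGFb (A and B). They were chosen by these labels, out of 20 in the series, and are described across all 23368 genes of the count tables, of which 14124 had enough reads to be tested. The siKLF10+TGFb cells also carried an siRNA against KLF10, whereas the label of the TGFb group names no siRNA. Whether the TGFb cells received a control siRNA is not stated. Any part of siRNA delivery itself in the differences was not tested. A siKLF10 effect below means the difference between the labelled groups. The other 4 A549 libraries (2 siCont, with a control siRNA, and 2 siKLF10, both without TGFβ) and 6 libraries of the pancreatic carcinoma line Panc1 (3 TGFb, 3 siKLF10+TGFb) are used where stated. The series asks whether KLF10 acts as a negative feedback on the epithelial-to-mesenchymal transition that TGFβ sets off. The labels do not state that A and B of a group are different cultures. The p-values therefore rest on library-to-library spread alone, and that spread may be technical. The labels describe no clone. They also call the line immortalized with SV40 large T antigen, a statement that was not tested here.

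TGFβ binds a pair of serine/threonine kinase receptors, which activate SMAD proteins that enter the nucleus and switch genes on or off. In epithelial tumour cells a long exposure lowers junction genes such as CDH1 and raises mesenchymal genes such as CDH2, VIM and FN1, through transcription factors of the SNAI and ZEB families. KLF10 is a zinc-finger transcription factor that TGFβ induces early, and its family binds GC-rich and CACCC sequences in promoters.

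Reads assigned to genes numbered 10215952 in TGFb A, 6846761 in TGFb B, 10276378 in siKLF10+TGFb A and 19070551 in siKLF10+TGFb B. Levels are in CPM, reads of a gene relative to all reads in genes after scaling between libraries, and 3 reads correspond to 0.157 to 0.438 CPM. Of the A549 markers, ALDH1A1 stood at 11310 to 13238 CPM in the 4 libraries. Of the 4 Panc1 markers, IL13RA2 was at 0 to 0.203 CPM, but AXL stood at 105 to 146, KRT80 at 134 to 230 and GPX8 at 77.7 to 96.1 CPM, so these 3 are shared with A549. The lung surfactant genes SFTPA1, SFTPB and SFTPC were at 0 to 0.163 CPM. The siKLF10+TGFb pair stood apart from the other A549 pairs: its chi-square per degree of freedom, over genes averaging 20 or more reads, was 11.4, against 2.22 to 2.97 for the TGFb, siCont and siKLF10 pairs (Panc1 pairs reached 12.5). Library B of that pair is also the deepest.

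KLF10 itself was measured first, since it is the target. It stood at 179 and 179 CPM in TGFb A and B, and at 151 and 142 CPM in siKLF10+TGFb A and B. The groups did not overlap. Without TGFβ, KLF10 stood at 110 and 107 CPM with the control siRNA and at 102 and 109 CPM with siKLF10, where the groups overlapped and no difference was called (log2 −0.05 ± 0.0802, adjusted p = 0.743). The fall under TGFβ was 1.22-fold (log2 −0.29 ± 0.0779 SE, adjusted p = 0.00775). Adjusted p-values come from the quasi-likelihood test of edgeR, corrected by Benjamini-Hochberg over all tested genes, and a gene is called when its value is under 0.05. The call was lost without TGFb A (adjusted p = 0.0624) and without TGFb B (0.057), and in the authors' deposited table KLF10 has a log2 fold change of −0.28 with an adjusted p of 0.0624. The groups are therefore named by their labels throughout.

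Under TGFβ, 3996 of the 14124 tested genes were called between siKLF10+TGFb and TGFb, which is 28.3%. Of these, 2029 rose (14.4% of all tested) and 1967 fell (13.9%), and the median log2 fold change of all tested genes was 0.01. The change was at least 2-fold for 561 genes, 329 up and 232 down. Leaving out siKLF10+TGFb B gave 3480 called genes, of which 1818 rose. Leaving out TGFb A gave 2237 and TGFb B gave 2439, while leaving out siKLF10+TGFb A gave 5409. Each of these omissions leaves 1 library in a group, so the p-values take their spread from the other groups alone. The same holds wherever an A549 library is left out in this report. Such counts describe dependence on single libraries and are no test of stability. A fit on only the 4 libraries compared gave 3167 called genes. The authors' deposited table lists 1814 genes with an adjusted p under 0.05, of which 1801 were also called here, all with the same sign.

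**Figure D1:**
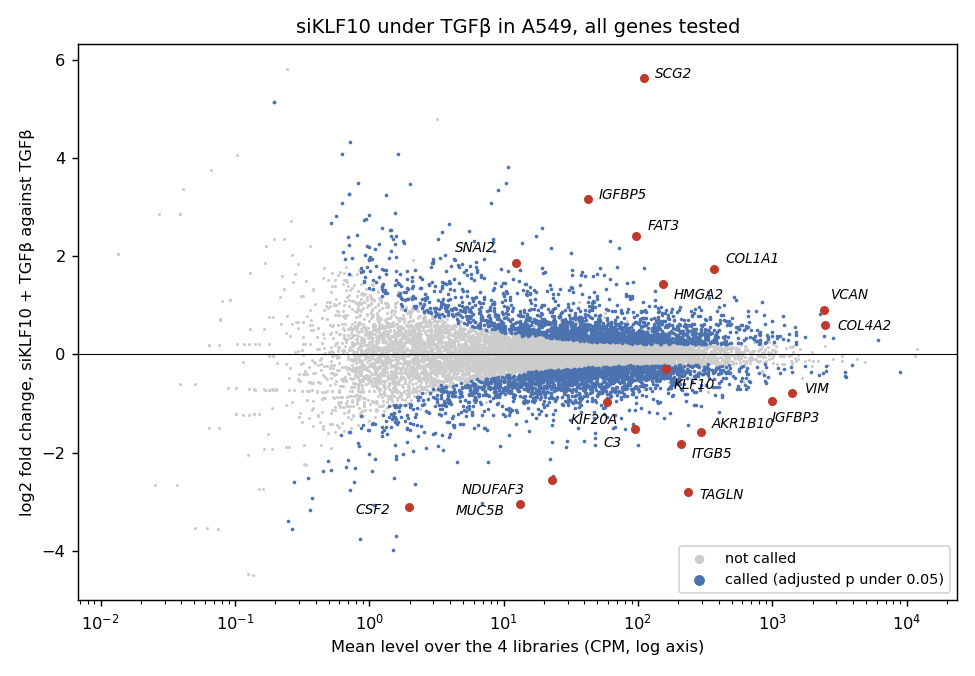
Change of each of the 14124 tested genes (vertical axis, log2 fold change of siKLF10+TGFb against TGFb) against its mean level over the 4 libraries (horizontal axis, CPM on a log scale). Blue points are the 3996 called genes, grey points the others and red points named genes; SCG2 lies at 5.63 and KLF10 lies close to 0 at −0.29.

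The largest rise among genes averaging at least 5 CPM was that of SCG2. It encodes secretogranin II of hormone-storing granules and was at 4.73 and 4.01 CPM in TGFb A and B and at 182 and 257 CPM in siKLF10+TGFb A and B. That is a 49.6-fold rise (log2 5.63 ± 0.199, adjusted p = 1.19e-09), and neither siKLF10+TGFb library came near the TGFb pair. The siCont libraries held 1.02 and 1.40 CPM and the siKLF10 libraries 2.08 and 2.09 CPM, so the highest of the other 6 A549 libraries was TGFb A at 4.73 CPM.

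IGFBP5, a binding protein of insulin-like growth factors, was at 9.96 and 6.68 CPM in the TGFb libraries and at 70.4 and 83.6 CPM with siKLF10 (log2 3.17 ± 0.149, 9.03-fold, adjusted p = 5.14e-12). FAT3, a giant cadherin, went from 31.2 and 30.1 CPM to 157 and 172 CPM (log2 2.42 ± 0.115, adjusted p = 1.09e-11). For SDC2, a heparan sulfate proteoglycan of the cell surface, the values were 5.94 and 4.90 CPM against 28.0 and 30.8 CPM (log2 2.42 ± 0.156, adjusted p = 3.66e-10). For all 3 genes both siKLF10+TGFb libraries lay far above both TGFb libraries.

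CFI encodes a protease that inactivates complement proteins. It was at 13.0 and 16.2 CPM in siCont, 2.41 and 1.63 CPM in TGFb, and 6.08 and 8.29 CPM in siKLF10+TGFb (log2 1.82 ± 0.264, adjusted p = 2.41e-05).

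Receptors and a channel subunit that were scarce in the TGFb libraries also rose. ADRA2A, an alpha-2 adrenergic receptor, was at 2.01 and 1.04 CPM against 16.8 and 16.3 CPM, a 10.2-fold rise (log2 3.35 ± 0.234, adjusted p = 1.19e-09). KCNE4, an accessory subunit of potassium channels, was at 1.51 and 1.34 CPM against 19.3 and 21.3 CPM (log2 3.82 ± 0.242, adjusted p = 2.95e-10). SUCNR1, the succinate receptor, was at 1.51 and 1.78 CPM against 9.62 and 9.16 CPM (log2 2.52 ± 0.279, adjusted p = 7.76e-07). Also among the 15 largest rises were TMEM132E, LOC157381, IGFL3, DCLK1, CBLN2, KALRN and BHLHE41, whose log2 fold changes ran from 3.50 for TMEM132E down to 2.27 for BHLHE41. All 15 rises were called under all 11 alternative settings tried.

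**Figure D2:**
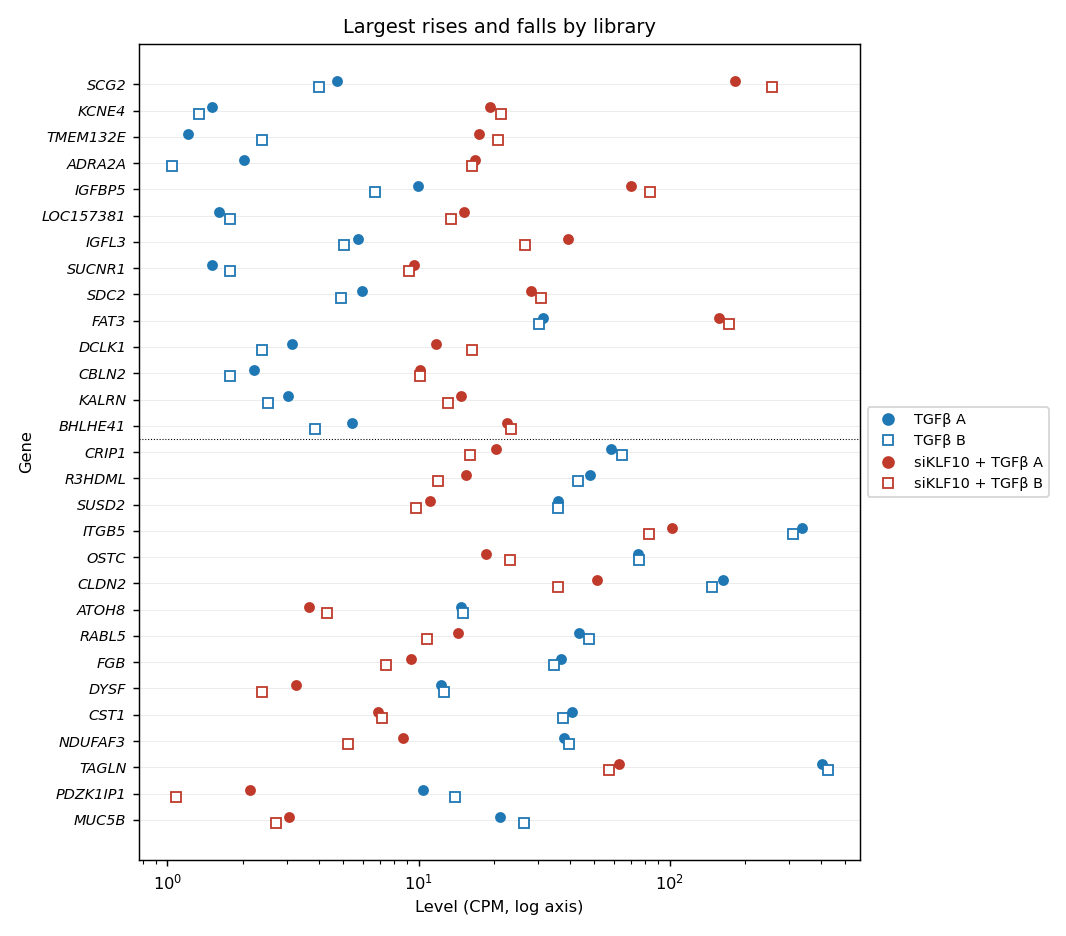
Level of 14 of the 15 genes with the largest rise (upper block) and of the 15 with the largest fall (lower block) in each of the 4 libraries (CPM on a log axis; blue TGFb, red siKLF10+TGFb; filled circles library A, open squares library B). Red and blue points do not overlap for any of the 29 genes shown, which the selection required.

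The largest falls were in genes with varied roles. TAGLN, which encodes transgelin, an actin-binding protein and a classical TGFβ target, was at 406 and 426 CPM in the TGFb libraries and at 63.0 and 57.2 CPM in the siKLF10+TGFb libraries. This was a 6.94-fold fall (log2 −2.80 ± 0.0866, adjusted p = 3.84e-15), the smallest adjusted p of the 30 genes with the largest changes. The siCont libraries held 49.1 and 46.7 CPM, so both siKLF10+TGFb libraries lay far closer to the untreated control cells than to the TGFb libraries. TAGLN was also lower with siKLF10 in the absence of TGFβ, at a mean of 18.6 CPM. Among siKLF10 cells it was thus still higher with TGFβ, at a mean of 60.1 CPM.

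MUC5B, a gel-forming airway mucin, was at 21.1 and 26.4 CPM in TGFb and at 3.04 and 2.71 CPM in siKLF10+TGFb (log2 −3.05 ± 0.17, adjusted p = 1.40e-10). Without TGFβ it stood at 1015 and 1016 CPM in siCont and at 324 and 392 CPM in siKLF10. CST1, a secreted inhibitor of cysteine proteases, was at 40.9 and 37.7 CPM against 6.89 and 7.15 CPM (log2 −2.48 ± 0.127, adjusted p = 1.26e-11). SUSD2, a cell-surface protein with a sushi domain, was at 35.8 and 35.8 CPM against 11.1 and 9.81 CPM (log2 −1.79 ± 0.112, adjusted p = 2.44e-10).

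PDZK1IP1, a small membrane protein of epithelia, was at 10.4 and 14 CPM against 2.13 and 1.08 CPM (log2 −3.02 ± 0.271, adjusted p = 6.45e-08). DYSF, which encodes the membrane repair protein dysferlin, was at 12.3 and 12.6 CPM against 3.24 and 2.38 CPM (log2 −2.19 ± 0.232, adjusted p = 4.39e-07). CRIP1, a small LIM-domain protein, was at 58.3 and 64.6 CPM against 20.4 and 16.1 CPM (log2 −1.77 ± 0.119, adjusted p = 6.94e-10). In each of these the siKLF10+TGFb pair lay wholly under the TGFb pair. FGB, ATOH8 and R3HDML completed this group with log2 fold changes of −2.14, −1.86 and −1.77.

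The other 5 of the 15 largest falls were NDUFAF3, an assembly factor of respiratory complex I, RABL5, a small GTPase of ciliary transport, CLDN2, a tight junction claudin, OSTC, a subunit of the oligosaccharyltransferase of the endoplasmic reticulum, and ITGB5, the integrin β5 subunit. NDUFAF3 was at 38 and 39.8 CPM in TGFb and at 8.71 and 5.26 CPM in siKLF10+TGFb (log2 −2.55 ± 0.16). ITGB5 was at 338 and 309 CPM against 102 and 82.8 CPM (log2 −1.82 ± 0.0913). OSTC was at 75.2 and 75.7 CPM against 18.5 and 23.1 CPM (log2 −1.84 ± 0.105). Their adjusted p-values were at most 5.24e-06, the value of CLDN2, and the fall of each was called under all 11 alternative settings.

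The 5 most abundant rises and falls of at least 1.5-fold are given next. COL4A2, a basement membrane collagen chain, was at 1961 and 1957 CPM in TGFb and at 2839 and 3127 CPM in siKLF10+TGFb (log2 0.61 ± 0.0737, adjusted p = 2.51e-06). VCAN, the matrix proteoglycan versican, was at 1775 and 1602 CPM against 3112 and 3181 CPM (log2 0.90 ± 0.0798, adjusted p = 3.70e-08). COL5A2 (log2 0.79 ± 0.0717), the cytoskeletal linker PLEC (0.83 ± 0.0824) and the membrane protein DCBLD2 (0.59 ± 0.0728) rose too. The abundant falls were VIM, IGFBP3 (log2 −0.94 ± 0.0803), the myosin light chain MYL6 (−0.59 ± 0.087), the chromatin protein NUCKS1 (−0.67 ± 0.0722) and the tubulin TUBA1B (−0.70 ± 0.0932). For all 10 of these genes the largest adjusted p was 3.14e-05, that of MYL6.

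The classical genes of the epithelial-to-mesenchymal transition did not move in 1 direction. SNAI2, a repressor of epithelial genes, was at 5.84 and 4.75 CPM in TGFb and at 18.2 and 20.9 CPM in siKLF10+TGFb, against 0.798 and 0.613 CPM in siCont. It rose 3.66-fold (log2 1.87 ± 0.172, adjusted p = 5.90e-08). CDH2, which encodes N-cadherin, was at 211 and 198 CPM against 308 and 326 CPM (log2 0.63 ± 0.0795, adjusted p = 3.92e-06). Both groups were separate from each other in SNAI2 and CDH2, and these calls held under all 11 alternative settings.

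VIM, the intermediate filament of mesenchymal cells, went the other way. It was at 1765 and 1821 CPM in TGFb and at 1130 and 948 CPM in siKLF10+TGFb, a fall of 1.73-fold (log2 −0.79 ± 0.081, adjusted p = 2.92e-07). The siCont libraries held 747 and 752 CPM, below both TGFβ-treated groups. VIM was lower with siKLF10 in the absence of TGFβ too, at a mean of 553 CPM. The siKLF10 effects on VIM with and without TGFβ were not called different (log2 difference −0.35, edgeR adjusted p = 0.0785). That difference depended on the library kept, at −0.48 without siKLF10+TGFb A and −0.22 without siKLF10+TGFb B. CDH1, which encodes E-cadherin, was at 44.6 and 37.9 CPM against 38.1 and 38.8 CPM, so the groups overlapped (log2 −0.11 ± 0.0959, adjusted p = 0.426). Its siCont level was 320 and 324 CPM.

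The remaining genes of this set were called with smaller changes. By the authors' Wald test in their deposited table, none of them is under 0.05. The adjusted p there is 0.217 for SNAI1, 0.0733 for ZEB1, 0.0508 for FN1 and 0.0902 for SMAD7. SNAI1, also a repressor of epithelial genes, was at 18.9 and 19.3 CPM against 24.8 and 25.1 CPM (log2 0.39 ± 0.137, adjusted p = 0.0383). Its call was lost without TGFb A (adjusted p = 0.204), without TGFb B (0.134), without siKLF10+TGFb B (0.0616), with DESeq2 (0.195) and in thinned libraries (0.0848). ZEB1, a repressor of the ZEB family, was at 45.8 and 47.5 CPM against 54.5 and 69.7 CPM (log2 0.43 ± 0.111, adjusted p = 0.00635). Its log2 fold change was 0.23 without siKLF10+TGFb B (adjusted p = 0.129), and without TGFb A the adjusted p was 0.0873. FN1, the matrix protein fibronectin, was at 5760 and 5226 CPM against 7168 and 6265 CPM (log2 0.29 ± 0.0836, adjusted p = 0.0124), a call lost without TGFb B (0.187). SMAD7, the inhibitory SMAD of the feedback loop, was at 79.2 and 74.4 CPM against 94.0 and 97.9 CPM (log2 0.32 ± 0.0859, adjusted p = 0.00774), lost without TGFb B (0.0935).

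**Figure D3:**
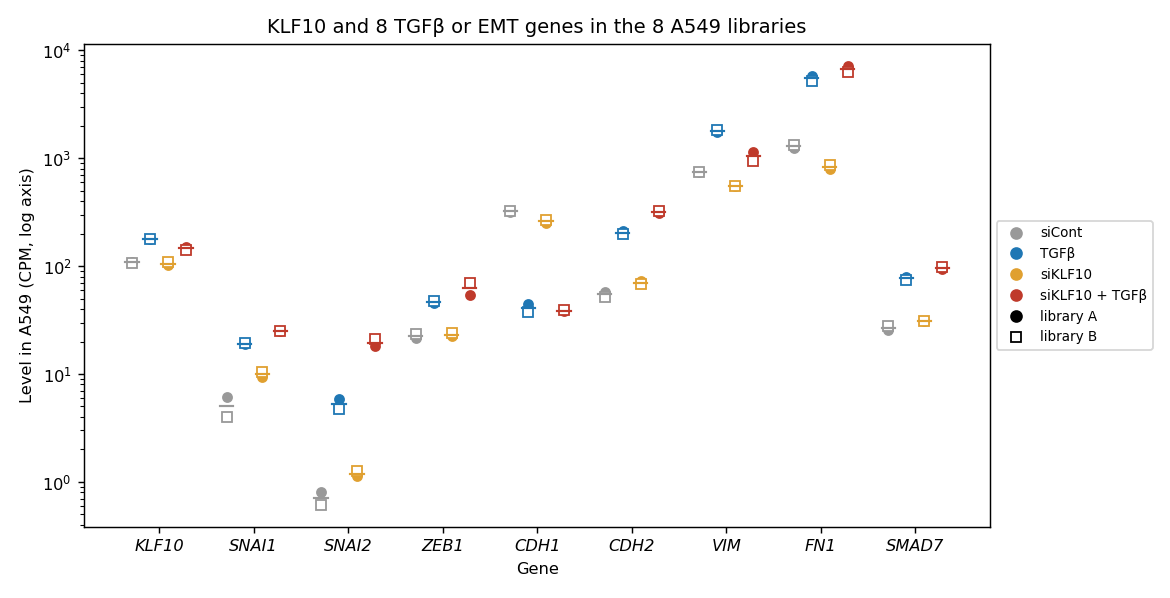
Levels of KLF10 and 8 genes of TGFβ signalling or the epithelial-to-mesenchymal transition in the 8 A549 libraries (CPM on a log axis; colours mark the 4 groups, filled circles library A, open squares library B, short bars the mean of 2). SNAI2 and CDH2 are higher and VIM is lower in siKLF10+TGFb than in TGFb, and the CDH1 points of these groups overlap.

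Of 14 tested transcription factors of the transition, 7 rose and 1 fell (over all tested genes 14.4% rose and 13.9% fell), with a median log2 fold change of 0.28 against 0.01 for all tested genes. The same 14.4% and 13.9% apply to each later list count of siKLF10+TGFb against TGFb with all libraries kept. They do not apply to counts with 1 library left out, where the calls over all genes also changed. Nor do they apply to siKLF10 against siCont, where 1351 of 14124 genes rose and 1407 fell. Besides SNAI2, SNAI1 and ZEB1, the risers included SOX4 (log2 0.50 ± 0.0774, adjusted p = 5.21e-05) and ZEB2 (0.57 ± 0.171, adjusted p = 0.0157). The factor that fell was ETS1, at 91.5 and 96.7 CPM against 60.9 and 71.0 CPM (log2 −0.50 ± 0.0983). Without siKLF10+TGFb B 3 factors rose and 1 fell, without TGFb A 3 and 1, and without TGFb B 4 and 1, and the ZEB2 call was lost in each of these.

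Of 22 mesenchymal genes 11 rose and 5 fell (median 0.35), or 9 and 6 without siKLF10+TGFb B. TNC, the matrix glycoprotein tenascin C, was at 7.55 and 8.17 CPM against 20.9 and 21.6 CPM (log2 1.44 ± 0.167, adjusted p = 1.42e-06). SPARC, a collagen-binding matrix protein, was at 81.2 and 83.5 CPM against 38 and 30.9 CPM (log2 −1.27 ± 0.129, adjusted p = 6.73e-07). Together with SPARC, ITGB5 and VIM were among the members that fell. Collagen and matrix genes had 15 of 36 up and 6 down (median 0.17), or 15 and 5 without siKLF10+TGFb B, while the falls numbered 3 without TGFb A and 3 without TGFb B.

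COL1A1, the main chain of type I collagen, rose most among the abundant collagens: 163 and 179 CPM in TGFb and 562 and 582 CPM in siKLF10+TGFb, a 3.35-fold rise (log2 1.75 ± 0.0774, adjusted p = 2.77e-12). It stood at 6.17 and 6.48 CPM in siCont. COL5A1 was at 522 and 545 CPM against 906 and 1058 CPM (log2 0.88 ± 0.0801). HAS2, the enzyme that makes hyaluronan, was at 3.22 and 2.67 CPM against 10.0 and 12.6 CPM (log2 1.94 ± 0.233, adjusted p = 2.15e-06). The groups were separate for each of these genes.

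Within the TGFβ pathway itself, 9 of 25 signalling and feedback genes rose and 5 fell (median 0.19). TGFBR1, the type I receptor kinase, was at 503 and 466 CPM against 834 and 836 CPM (log2 0.79 ± 0.0721, adjusted p = 5.75e-08). The ligand gene TGFB2 was at 108 and 105 CPM against 177 and 178 CPM (log2 0.73 ± 0.0785, adjusted p = 5.21e-07). SMAD3, which carries the signal to the nucleus, was at 550 and 537 CPM against 301 and 313 CPM (log2 −0.82 ± 0.0715, adjusted p = 2.88e-08). A receptor and a ligand gene were thus higher while the mediator SMAD3 was lower. LTBP2, a latent TGFβ binding protein of the matrix, fell as well, from 216 and 212 CPM to 119 and 129 CPM (log2 −0.78 ± 0.0861). Without siKLF10+TGFb B 9 of these genes rose and 3 fell, and without TGFb B 7 and 3.

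Known TGFβ targets were divided: 10 of 29 rose and 9 fell (median −0.03). HMGA2, an architectural chromatin protein, was at 85.4 and 79.7 CPM against 206 and 239 CPM (log2 1.43 ± 0.088, adjusted p = 1.99e-10). ADAM19, a membrane metalloprotease, was at 559 and 528 CPM against 1100 and 1168 CPM (log2 1.06 ± 0.0786, adjusted p = 2.65e-09), and the growth factor gene PDGFA at 55.3 and 56.1 CPM against 104 and 144 CPM (1.16 ± 0.128). TAGLN was the target that fell most. Without TGFb A 8 targets rose and 6 fell, and without siKLF10+TGFb B 11 and 8. In the actin and contractile list 8 of 26 genes fell and 1 rose (median −0.06), with TPM4, a tropomyosin, at 790 and 726 CPM against 473 and 503 CPM (log2 −0.63 ± 0.0748). CNN3, a calponin, was the riser (log2 0.41 ± 0.0815). The falls of this list numbered 7 without siKLF10+TGFb B, 4 without TGFb A and 4 without TGFb B, and without siKLF10+TGFb A 6 of its genes rose and 9 fell.

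**Figure D4:**
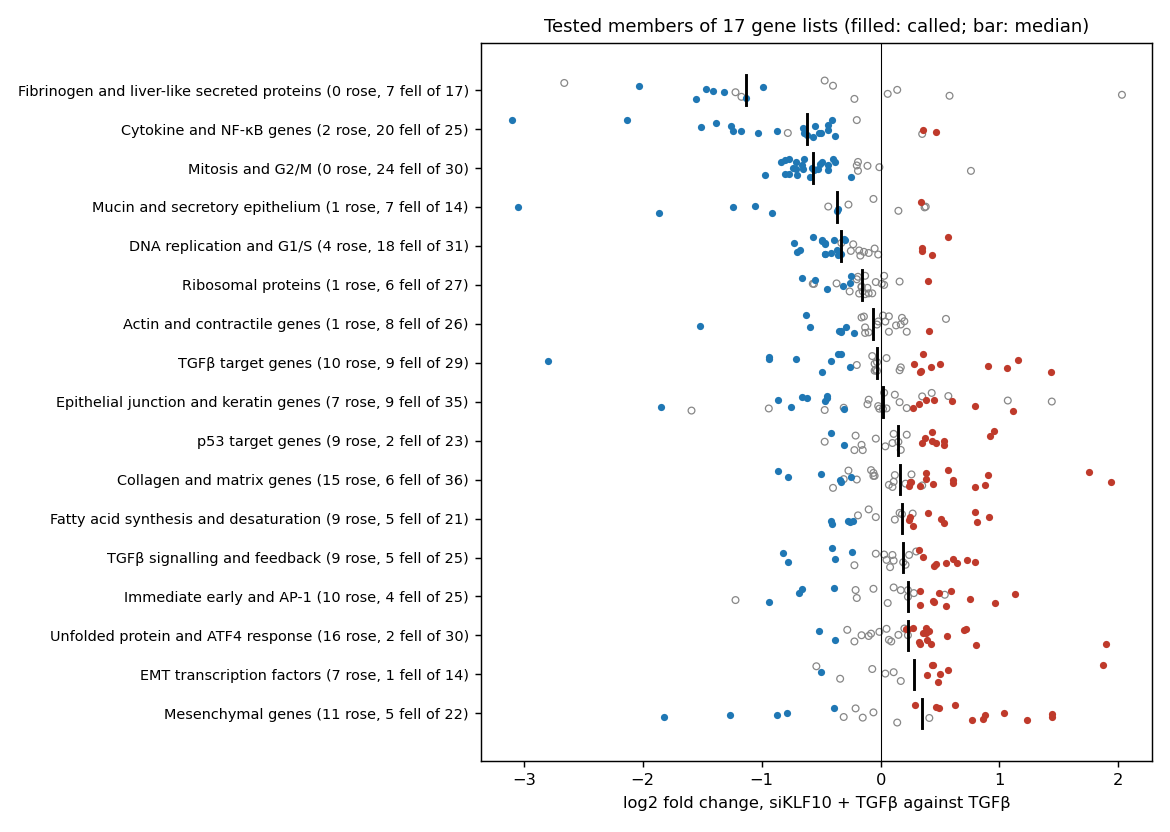
Log2 fold change of siKLF10+TGFb against TGFb (horizontal axis) for the tested members of 17 gene lists; each point is a gene, red if it rose, blue if it fell and open if it was not called, and the black bar is the median. The cytokine and NF-κB list (20 of 25 fell) and the mitosis list (24 of 30 fell) lie left of 0, while the unfolded protein list (16 of 30 rose) lies to the right.

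Most cytokine and NF-κB genes fell with siKLF10. NF-κB is a family of transcription factors that switches on chemokines, cytokines and its own inhibitors. Of 25 tested members, 20 fell and 2 rose (80.0% fell, against 13.9% of all tested genes), with a median log2 fold change of −0.62. C3, complement component 3, was at 150 and 134 CPM in TGFb and at 50.4 and 49.5 CPM in siKLF10+TGFb (log2 −1.51 ± 0.0826, adjusted p = 3.50e-11). CCL20, a chemokine for dendritic cells and lymphocytes, was at 4.93 and 6.68 CPM against 1.62 and 2.49 CPM (log2 −1.38 ± 0.255, adjusted p = 0.00033). LCN2, an iron-siderophore binding protein, was at 2.31 and 2.82 CPM against 0.709 and 0.488 CPM (log2 −2.13 ± 0.361, adjusted p = 0.000129), and CSF2, the growth factor GM-CSF, at 3.02 and 4.01 CPM against 0.709 and 0.217 CPM (−3.10 ± 0.477, adjusted p = 6.69e-05). CCL20, LCN2 and CSF2 are scarce transcripts, whereas C3 is not, and in all 4 the groups were separate. The number that fell stayed between 17 and 20 when any 1 of the 4 libraries was left out. Without TGFβ the same list had 2 members down and 5 up (median 0.00) in siKLF10 against siCont.

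RefSeq promoters (build GRCh38.p14, 250 bases before to 50 after the first listed start) were matched for 21 of the 25 members and for 10801 of the 14124 tested genes. The letters GGNNNTTCC, a simplified NF-κB site, or their reverse complement GGAANNNCC, occurred in 16 of the 21 (76.2%) and in 22.9% of all matched promoters. The list share counts all matched members whether or not they fell, so it is no result of the comparison. Among all tested genes that fell the share was 23.5%, and among those that rose 20.3%. The 150 bases just before the start are shown for CSF2 (chr5:132073639-132073788, plus strand) and CCL20 (chr2:227813692-227813841, plus strand), members among the 4 with the largest called changes, with these letters in capitals. CSF2 holds a pair of matches and CCL20 holds 1. LCN2, also among the 4, has its only match further upstream, outside these 150 bases, and C3 had no matched promoter. A match describes the letters only, and binding was not measured.
CSF2: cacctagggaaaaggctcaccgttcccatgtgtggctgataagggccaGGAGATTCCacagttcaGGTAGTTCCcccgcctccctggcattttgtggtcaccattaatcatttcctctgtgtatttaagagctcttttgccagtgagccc
CCL20: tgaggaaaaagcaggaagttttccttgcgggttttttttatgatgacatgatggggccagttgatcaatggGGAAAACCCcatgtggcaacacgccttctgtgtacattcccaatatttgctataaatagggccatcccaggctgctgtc

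Most genes of mitosis fell, each by less than 2-fold. Of 30 tested members of the mitosis and G2/M list, 24 fell and none rose (80.0%, against 13.9% of all tested genes), with a median log2 fold change of −0.57. KIF20A, a kinesin needed for cytokinesis, was at 79.2 and 75.6 CPM in TGFb and at 46.1 and 34.2 CPM in siKLF10+TGFb (log2 −0.97 ± 0.11, adjusted p = 1.58e-06). CDC20, the activator of the anaphase-promoting complex, was at 96.1 and 104 CPM against 64.5 and 48.2 CPM (log2 −0.84 ± 0.113, adjusted p = 2.08e-05). CENPA, the centromere histone, was at 27.9 and 29.7 CPM against 18.0 and 15.3 CPM (log2 −0.80 ± 0.122, adjusted p = 4.15e-05), and CDC25C, the phosphatase that activates CDK1, at 21.8 and 18.9 CPM against 13.1 and 10.8 CPM (−0.80 ± 0.139). In each of these, siKLF10+TGFb B was lower than siKLF10+TGFb A. Without siKLF10+TGFb B the median log2 fold change of the list was −0.54, and without siKLF10+TGFb A it was −0.60. Without TGFb A it was −0.56, and without TGFb B −0.58. In bulk RNA, fewer cells in division and less of these transcripts per cell cannot be told apart. Without TGFβ 2 members fell and 2 rose in siKLF10 against siCont.

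Genes of DNA replication and the G1/S step had 18 of 31 down and 4 up (median −0.33). MCM5, a subunit of the replicative helicase, was at 113 and 121 CPM against 79.5 and 67.8 CPM (log2 −0.68 ± 0.0926, adjusted p = 1.14e-05). CDC6, which loads that helicase, was at 83.4 and 83.6 CPM against 55.8 and 47.5 CPM (log2 −0.70 ± 0.0984, adjusted p = 1.53e-05). The count of falls was 13 to 18 over the 4 omissions of 1 library.

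The promoters of 24 mitosis members were matched. TTTGAA or its reverse complement TTCAAA, the cell cycle homology region, occurred in 15 of 24 (62.5%) and in 9.65% of all matched promoters. CCAAT or ATTGG, the box bound by NF-Y, occurred in 19 of 24 (79.2%) and in 36.3% of all. These list shares count all matched members whether or not they fell, so they are no result of the comparison. In all tested genes that fell the shares were 12.2% and 39.8%, and in those that rose 8.01% and 34.0%. The 150 bases before the start are shown for 3 of the 4 members with the largest falls, KIF20A (chr5:138178962-138179111), CDC20 (chr1:43358831-43358980) and CENPA (chr2:26785906-26786055), all on the plus strand, with both kinds of letters in capitals. CDC20 and CENPA hold both kinds, and KIF20A holds the CCAAT letters only, in reverse. CDC25C, the remaining member of the 4, holds neither kind anywhere in its promoter and is not shown.
KIF20A: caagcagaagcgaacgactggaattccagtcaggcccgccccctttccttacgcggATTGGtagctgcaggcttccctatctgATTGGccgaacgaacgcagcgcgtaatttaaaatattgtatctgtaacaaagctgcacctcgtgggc
CDC20: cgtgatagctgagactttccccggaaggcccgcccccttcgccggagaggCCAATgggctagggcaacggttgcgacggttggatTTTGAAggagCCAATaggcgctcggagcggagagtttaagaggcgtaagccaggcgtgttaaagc
CENPA: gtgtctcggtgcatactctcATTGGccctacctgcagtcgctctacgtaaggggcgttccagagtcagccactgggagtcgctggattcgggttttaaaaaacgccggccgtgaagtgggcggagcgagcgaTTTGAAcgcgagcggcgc

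The motifs of the KLF family itself were counted in the same promoters. GGGCGG or CCGCCC, the GC box, occurred in 71.7% of promoters of genes that rose, in 69.2% of those that fell and in 69.5% of all matched promoters. CACCC or GGGTG occurred in 64.9%, 63.3% and 63.2%. Among genes changed at least 2-fold the GC box shares were 58.7% up and 53.5% down, and the CACCC shares 68.5% and 69.0%. Each pair of shares was close between the directions.

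Lists of liver-like and airway secretory genes had more falls than rises. Of 17 tested genes for fibrinogen and other liver-like secreted proteins, 7 fell and none rose (41.2% fell, against 13.9% of all tested genes, median −1.13), and in siKLF10 against siCont 12 fell and none rose (median −1.04). FGA, the fibrinogen α chain, was at 21.7 and 24.1 CPM in TGFb and at 9.42 and 6.66 CPM in siKLF10+TGFb, against 520 and 577 CPM in siCont (log2 −1.55 ± 0.143, adjusted p = 8.98e-08). CP, the copper protein ceruloplasmin, was at 99.3 and 98.6 CPM against 35.0 and 36.3 CPM (log2 −1.47 ± 0.144, adjusted p = 2.41e-05), with an adjusted p of 0.0518 without siKLF10+TGFb B. Without that library, and likewise without TGFb A, 5 of the genes fell. Among mucin and secretory genes 7 of 14 fell and 1 rose, a count of 4 and 0 without siKLF10+TGFb B and of 3 and 1 without TGFb A. AGR2, a chaperone of mucin-making cells, was at 8.45 and 6.24 CPM against 4.46 and 3.09 CPM (log2 −1.06 ± 0.191), and S100P, a calcium-binding protein, at 7.65 and 8.91 CPM against 2.53 and 4.01 CPM (−1.24 ± 0.196).

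Of the 8 markers of the A549 line, 5 fell and none rose, and FGB is among both these and the 15 largest falls. AKR1B10, an aldo-keto reductase, was at 484 and 404 CPM against 169 and 131 CPM (log2 −1.57 ± 0.122, adjusted p = 9.96e-07), and ALDH3A1, an aldehyde dehydrogenase, at 93.4 and 98.0 CPM against 33.5 and 34.1 CPM (−1.5 ± 0.0854, adjusted p = 6.17e-11). The summed level of the 8 markers was 14686 to 15284 CPM in TGFb and 14024 to 15691 CPM in siKLF10+TGFb, carried by ALDH1A1. Of the markers of other cells, the fibroblast list summed to 7.28 to 9.46 CPM in TGFb and 11.9 to 12.4 CPM in siKLF10+TGFb, with THY1 (log2 1.95 ± 0.529) and PDGFRA (1.54 ± 0.382) called among 4 tested. THY1 stood at 0.503 and 0.297 CPM against 1.42 and 1.79 CPM, and PDGFRA at 0.905 and 1.63 CPM against 4.25 and 3.03 CPM. With DESeq2 neither was called. THY1 and PDGFRA were both lost without TGFb A, and THY1 also without TGFb B and without siKLF10+TGFb B. The blood marker CD3E and the pancreatic markers PTF1A, INS and CFTR were at 0 in all 4 libraries, and the endothelial list summed to 2.62 to 6.39 CPM, nearly all of it TEK. TEK, a receptor of angiopoietins, was at 2.41 and 3.42 CPM against 4.15 and 5.53 CPM (log2 0.80, adjusted p = 0.036), a call lost without TGFb A, TGFb B or siKLF10+TGFb B. Nor was TEK called with DESeq2 or in thinned libraries. The blood list summed to 50.9 to 54.3 CPM in TGFb and 33.3 to 35.2 CPM in siKLF10+TGFb, mostly CD68, a lysosomal protein that tumour cells also make, which fell (log2 −0.67, adjusted p = 7.70e-05). The pancreatic list summed to 84.4 to 94.0 CPM against 116 to 132 CPM, nearly all of it the transcription factor SOX9, which rose (log2 0.48, adjusted p = 0.000476), and the lung list to 0.891 to 1.41 CPM over the 4 libraries. The part of these levels in the gene lists was not tested.

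Stress lists had more rises than falls. Of 30 genes of the unfolded protein and ATF4 response, which adapt cells to protein folding load and amino acid shortage, 16 rose and 2 fell (53.3% rose, against 14.4% of all tested genes), with a median of 0.23. SLC7A11, the cystine transporter, was at 188 and 184 CPM in TGFb and at 314 and 332 CPM in siKLF10+TGFb (log2 0.80 ± 0.076, adjusted p = 1.01e-07). DDIT4, a brake on mTORC1, was at 308 and 314 CPM against 519 and 494 CPM (log2 0.70 ± 0.0716, adjusted p = 2.65e-07), and the transcription factor CEBPB at 74.6 and 83.0 CPM against 139 and 121 CPM (0.72 ± 0.0941). CHAC1, which breaks down glutathione, was at 1.21 and 1.19 CPM against 5.87 and 3.58 CPM (log2 1.90 ± 0.357). The number of risers was 10 without TGFb A and 9 without TGFb B, and 12 without siKLF10+TGFb B.

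Targets of p53 had 9 of 23 up and 2 down (median 0.15), among them TP53INP1 at 24.3 and 24.4 CPM against 43.3 and 50.4 CPM (log2 0.95 ± 0.114) and SESN2 at 14.2 and 15.6 CPM against 30.3 and 26.1 CPM (0.92 ± 0.136). Without siKLF10+TGFb B 8 of them rose and 4 fell, and without siKLF10+TGFb A or TGFb B 1 fell. Immediate early and AP-1 genes had 10 of 25 up and 4 down (median 0.23), or 10 and 3 without siKLF10+TGFb B. JUN was at 140 and 142 CPM against 247 and 298 CPM (log2 0.96 ± 0.091, adjusted p = 9.32e-08), while FOS was at 6.14 and 6.09 CPM against 4.05 and 2.65 CPM (−0.94 ± 0.221, adjusted p = 0.00291; 0.102 without siKLF10+TGFb B). In the apoptosis list 5 of 20 rose and 2 fell, or 5 and 3 without siKLF10+TGFb B and 7 and 5 without siKLF10+TGFb A. Of these BMF, a BH3-only protein that opposes BCL2, changed most, from 32.6 and 30.1 CPM to 105 and 113 CPM (log2 1.79 ± 0.103, adjusted p = 6.81e-11).

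Metabolic lists moved in both directions. Fatty acid genes had 9 of 21 up and 5 down (median 0.18), led by GPAM, the first enzyme of triglyceride synthesis, at 114 and 111 CPM against 205 and 219 CPM (log2 0.91 ± 0.0809, adjusted p = 3.58e-08). The 5 falls became 1 without TGFb A, 3 without TGFb B and 3 without siKLF10+TGFb B. Cholesterol genes had 4 up and 4 down of 25, which became 4 and 2 without siKLF10+TGFb B, 2 and 3 without TGFb A and 3 and 2 without TGFb B. Hypoxia and glycolysis genes had 9 up and 9 down of 32, with HK2, a hexokinase, at 7.85 and 8.32 CPM against 18.9 and 21.0 CPM (log2 1.32 ± 0.164) and ADM, the vasodilator adrenomedullin, at 67.0 and 74.8 CPM against 34.0 and 35.3 CPM (−1.02 ± 0.0924). This became 8 up and 7 down without siKLF10+TGFb B, and 3 up and 4 down without TGFb A. NRF2 targets had 3 up and 6 down of 30, which became 5 up and 5 down without siKLF10+TGFb B and 3 up and 11 down without siKLF10+TGFb A.

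The remaining lists were as follows, beside 14.4% up and 13.9% down over all tested genes. In the KLF and SP family 1 of 20 rose and 2 fell, among them KLF6 at 98.1 and 97.7 CPM against 59.6 and 63.0 CPM (log2 −0.67 ± 0.0851, adjusted p = 4.16e-06), a larger fall than that of KLF10. The riser, KLF2 (log2 0.62 ± 0.178), was lost without either TGFb library. With DESeq2 KLF2 was not called either. Among ribosomal protein genes 6 of 27 fell and 1 rose. That count was 1 fall without TGFb B, 3 without TGFb A, 3 without siKLF10+TGFb B and 17 without siKLF10+TGFb A. Interferon-stimulated genes had 3 up and 5 down of 33, HLA class I genes 0 and 2 of 8, tubulins 1 and 3 of 12, histones 3 and 0 of 7, complement genes 4 and 3 of 12, junction and keratin genes 7 and 9 of 35, and small RNA machinery 6 and 2 of 16. The last became 1 and 1 without TGFb A and 2 and 1 without TGFb B, and the junction list 5 and 5 and 4 and 6. Without siKLF10+TGFb B the counts were 2 and 3 for interferon-stimulated genes, 0 and 1 for HLA class I, 1 and 3 for tubulins, 3 and 0 for histones, 4 and 3 for complement, 9 and 7 for junction and keratin genes and 4 and 1 for small RNA machinery. Without siKLF10+TGFb A 5 tubulins and 3 HLA genes fell.

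Transcript length moved with the comparison. Over 13518 tested genes with a length, the Spearman correlation between length and log2 fold change was 0.20 across genes, and the median ran from −0.10 in the shortest of 5 equal groups to 0.12 in the longest. In the shortest group 6.77% of genes rose and 18.9% fell, and in the longest 24.1% rose and 9.21% fell. The correlation was 0.12 without siKLF10+TGFb B and 0.24 without siKLF10+TGFb A. Genes are not independent replicates, and the part of length in single results was not tested. With each gene's length and GC content removed as an offset, an alternative added after the data were seen, 4220 genes were called, and the mitosis list had 25 falls, the cytokine list 19 and the unfolded protein list 16 rises. FN1 had an adjusted p of 0.0836 there.

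Without TGFβ, where KLF10 itself was not called lower (adjusted p = 0.743), the libraries labelled siKLF10 still differed from siCont. Between the siKLF10 and siCont libraries, which share no library with the TGFβ comparison, 2758 genes were called (19.5% of 14124), 1351 up and 1407 down. The number fell to 1326 to 1638 when any 1 of the 4 libraries was left out. In both comparisons 1489 genes were called, which is 37.3% of those called with TGFβ and 54.0% of those called without. Of the shared genes 712 rose in both, 693 fell in both and 84 moved in opposite directions. Across all 14124 genes Pearson's r of the log2 fold changes was 0.44, given as a description. By list, collagen and matrix genes had 13 up and 4 down of 36 without TGFβ, TGFβ targets 13 and 6 of 29, the unfolded protein list 10 and 2 of 30, mucin and secretory genes 1 and 6 of 14, and DNA replication genes 5 and 2 of 31.

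Falls with and without TGFβ included OSTC, ITGB5, NDUFAF3, RABL5 and CLDN2. OSTC was at 83.7 and 80.4 CPM in siCont and at 24.2 and 23.9 CPM in siKLF10 (log2 −1.77 ± 0.106), beside −1.84 with TGFβ. NDUFAF3 was at 50.6 and 49.7 CPM against 14.2 and 15.9 CPM (−1.74 ± 0.143), and ITGB5 at 503 and 477 CPM against 205 and 200 CPM (−1.28 ± 0.0881). In Panc1 under TGFβ, which shares no library with A549, the log2 fold changes were −1.43 for OSTC, −2.51 for NDUFAF3, −1.91 for RABL5 and −2.60 for ITGB5. Of 14124 genes tested in all 3 comparisons, 363 fell in all and 251 rose in all, but only 13 and 4 did so by at least 2-fold in each. Singly, 1967 genes fell and 2029 rose in A549 with TGFβ, and 1407 fell and 1351 rose without it. In Panc1 2771 of 15058 fell and 2647 rose. Whether these overlaps exceed what such counts would share was not tested.

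By the labels, the baseline without TGFβ is siCont, whereas the TGFb label names no siRNA. Any part of this in what follows was not tested. The difference between the siKLF10 effect with and without TGFβ was tested directly by an interaction term. It compares libraries by their labels, and for KLF10 the difference was not called (−0.24 ± 0.112, adjusted p = 0.228). It was called for 916 genes, 6.49% of those tested, 460 in which the effect was more positive with TGFβ and 456 in which it was more negative. The number was 379 to 545 without either TGFb library, either siCont library or either siKLF10 library, 1156 without siKLF10+TGFb B and 2685 without siKLF10+TGFb A. Among the largest positive differences were SCG2 (4.83 ± 0.603, adjusted p = 0.00059), IGFBP5 (3.72 ± 0.277, adjusted p = 7.84e-08), CFI (3.28 ± 0.327) and KCNE4 (2.82 ± 0.788). For KCNE4 the call was lost with any 1 of 5 libraries left out, with adjusted p-values from 0.0915 to 0.284. IGFBP5 was at 5.30 and 5.51 CPM in siCont and at 3.39 and 4.19 CPM in siKLF10, so its rise with siKLF10 was seen under TGFβ and not without it.

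In the opposite direction lay MMP10, TNFAIP6, GGT5, H19 and FA2H. TNFAIP6, a hyaluronan-binding protein, was at 0.145 and 0.350 CPM in siCont and at 1.56 and 1.95 CPM in siKLF10, but at 73.9 and 77.2 CPM in TGFb and at 80.8 and 89.4 CPM in siKLF10+TGFb (difference −2.62 ± 0.482, adjusted p = 0.00182). MMP10, a matrix metalloprotease, was at 0.145 and 0.263 CPM in siCont, 0.955 and 0.837 CPM in siKLF10, 52.9 and 47.2 CPM in TGFb and 29.4 and 31.9 CPM in siKLF10+TGFb (difference −2.84 ± 0.578, adjusted p = 0.00403, and 0.078 without siKLF10 A). Without TGFβ both genes were at 1.95 CPM or below, and in siCont they were near 3 reads. In libraries thinned to equal read numbers the difference was −6.36 for TNFAIP6 and −3.21 for MMP10. The sizes of these differences are therefore uncertain. FN1 was at 1257 and 1327 CPM in siCont and at 802 and 868 CPM in siKLF10, lower with the siRNA, and higher with it under TGFβ (difference 0.92 ± 0.119, adjusted p = 5.83e-05). SMAD3 showed the reverse, 571 and 559 CPM in siCont against 654 and 645 CPM in siKLF10 (difference −1.02 ± 0.1, adjusted p = 1.99e-06). The differences of HMGA2 (1.44 ± 0.126), TAGLN (−1.45 ± 0.135), KIF20A (−0.84 ± 0.151) and CDC20 (−0.86 ± 0.157) were called as well.

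**Figure D5:**
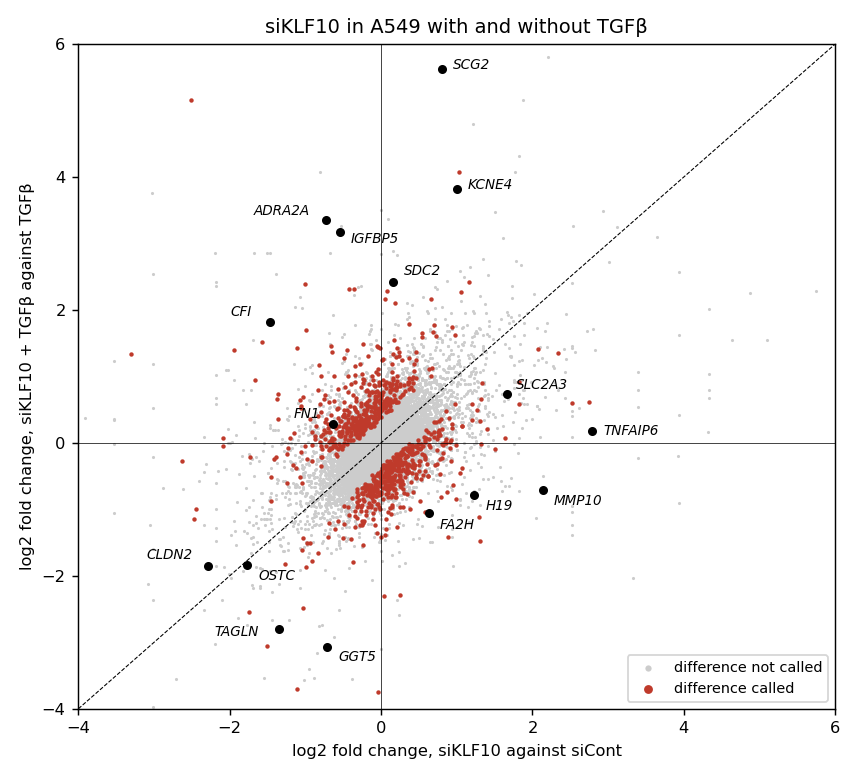
Log2 fold change for siKLF10 with TGFβ (vertical axis, siKLF10+TGFb against TGFb) against that without TGFβ (horizontal axis, siKLF10 against siCont) in A549; each point is a gene, the dashed line marks equal effects, and 3 genes lie outside the axes. Red points are genes whose difference was called (916), black points are named genes, and SCG2 and IGFBP5 lie far above the line while OSTC lies next to it.

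The siKLF10 effect under TGFβ was also set against that in Panc1, in 1 model over all 20 libraries. There 4009 of 15058 genes were called in A549 and 5418 in Panc1 (36%), with 1966 called in both, 49.0% of the first and 36.3% of the second. Of the 1966, 850 rose in both, 714 fell in both and 402 moved in opposite directions. The difference between the lines was called for 2979 genes (19.8%), or 1895 without A549 TGFb A. KLF10 was among them: in Panc1 it was at 193, 188 and 207 CPM in TGFb and at 100, 101 and 104 CPM in siKLF10+TGFb, a log2 fold change of −0.95 (difference 0.69 ± 0.0971, adjusted p = 3.33e-06). The siRNA target was therefore lowered less in A549 than in Panc1.

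SNAI2 rose in both lines, by 1.28 ± 0.215 more in A549 on the log2 scale (adjusted p = 4.41e-05). In Panc1 it was at 26.8, 20.7 and 25.5 CPM in TGFb and at 36.4, 36.0 and 39.9 CPM in siKLF10+TGFb. ZEB1 was at 158, 152 and 156 CPM in Panc1 TGFb and at 140, 148 and 154 CPM with siKLF10 (difference 0.53 ± 0.125, adjusted p = 0.00214, and 0.0863 without A549 siKLF10+TGFb B). VIM fell in both lines: in Panc1 it was at 13021, 12178 and 13637 CPM against 7072, 6401 and 6064 CPM, and the difference between the lines was not called (0.23 ± 0.11, adjusted p = 0.147). It was called without A549 siKLF10+TGFb B (adjusted p = 0.0429), without Panc1 siKLF10+TGFb A (0.0471) and with the length and GC offsets (0.0224). The lines also differed in TAGLN, IGFBP3, COL1A1 and HMGA2, with differences of −2.73, −1.89, 1.72 and 0.86 (largest adjusted p = 8.97e-07, for HMGA2). IGFBP3 rose in Panc1 (log2 0.98) where it fell in A549, and TAGLN had a log2 fold change of −0.04 in Panc1 (adjusted p = 0.901).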

How the data were processed

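Poly(A) RNA was sequenced from A549 and Panc1 cells. Per library, the authors deposited whole-number counts of reads in each gene. Tools named in the submitters' processing notes are TopHat, Bowtie2, HTSeq 0.6.0 and DESeq2 with build hg19, without role or order. Whether counting used strand is not stated by any source used here. Genes overlapping another gene or an antisense partner, and those with near-identical copies, are thus uncertain. The 5 summary lines of each table were dropped, and in A549 reads in no gene made up 57.6 to 60.1%. The deposited table of the authors' own comparison holds, per the file headers, p-values, a score (the Wald statistic), log2 fold changes and their errors, and the mean signal per gene after normalization. It is used only where named.

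Counts were filtered by filterByExpr (minimum count 10, minimum total 15), scaled by TMM and fitted with edgeR 4.0.16 (quasi-likelihood, R 4.3.3) over all 8 A549 libraries, which share 1 estimate of the spread (4 residual degrees of freedom), or over all 20 (12 degrees). The common biological coefficient of variation was 0.067. On simulated counts with known 2-fold and 4-fold changes in genes of at least 5 CPM, the script called every changed gene with the right sign. That simulation changed few genes and gave all groups the same spread. It therefore covers neither scarcer genes nor the wider spread of the siKLF10+TGFb pair. DESeq2 1.42.0 and the other alternatives are in the closing section. Intervals are SE of the fit, and floors cover counting error only. The members and gene lists were chosen with earlier results of these data known. Named were KLF10 and 8 fixed genes, the 15 largest called rises and falls with a mean of at least 5 CPM and separate groups, the 5 most abundant in each direction at 1.5-fold or more, up to 4 called members per list, and the 5 largest called differences each way. Genes beside these were named after their values were seen: the markers of other cell types, and TAGLN, SMAD3, HMGA2, KIF20A, CDC20, IGFBP3, COL1A1 and VIM where a difference between comparisons is given. Lengths are of the longest GENCODE transcript of each gene, matched by symbol, and promoters are from RefSeq. A few genes that the rule names are not reported here.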

Additional observations from a re-analysis of the deposited data

Results flagged for a closer look

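Genes are given here because the effect of siKLF10 differed, by edgeR's interaction test, between A549 with and without TGFβ or between A549 and Panc1 under TGFβ. With TGFβ minus without, the log2 differences were 4.83 for SCG2, 3.72 for IGFBP5, 3.28 for CFI, 2.82 for KCNE4 and 0.92 for FN1, and −2.84 for MMP10, −2.62 for TNFAIP6, −2.36 for GGT5, −2.02 for H19 and −1.68 for FA2H. KCNE4, MMP10 and TNFAIP6 were near 3 reads in siCont, so the sizes of their differences are uncertain. GGT5 was at 13.2 and 15.2 CPM in siCont, 8.77 and 8.51 CPM in siKLF10, 1.51 and 2.38 CPM in TGFb and 0.304 and 0.163 CPM in siKLF10+TGFb, the last pair at 3 reads in each library, and its call was lost without TGFb B (adjusted p = 0.0901, edgeR) or siKLF10+TGFb B (0.117). H19 was at 4.50 and 4.90 CPM in siCont, 11.5 and 10.3 CPM in siKLF10, 5.03 and 10.5 CPM in TGFb and 3.85 and 4.55 CPM in siKLF10+TGFb. FA2H, at 10.5 and 11.2 CPM in siCont, was at 15.7 and 18.1 CPM in siKLF10, 2.21 and 1.48 CPM in TGFb and 1.11 and 0.813 CPM in siKLF10+TGFb. Its call was lost without TGFb A (difference −1.31) or siKLF10+TGFb B (−1.41). The FA2H call was also lost in libraries thinned to equal read numbers (adjusted p = 0.159, edgeR).

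A549 minus Panc1 under TGFβ, the differences were 0.69 for KLF10, 1.28 for SNAI2, 0.53 for ZEB1, 4.20 for SCG2 and −3.60 for R3HDML. Fits with 1 line at or near 0 reads gave 6.20 for NTSR1, 5.54 for FABP4, 5.43 for TRHDE, 5.09 for FAM46C, −3.47 for CST1, −3.64 for TNFAIP6 and −4.10 for SLC1A1. These depend on the prior count and are no measure of size. NTSR1 was at 138, 146 and 151 CPM in Panc1 TGFb and 65.1, 51.6 and 53.7 CPM in Panc1 siKLF10+TGFb, and at 0 and 0 CPM against 0.0991 and 0.382 CPM in A549, and its call was lost without A549 TGFb A (adjusted p = 0.0524, edgeR) or siKLF10+TGFb B (0.222). CST1 was at 0.073, 0.16 and 0.206 CPM in Panc1 TGFb. SLC1A1 was at 0 in all 3 Panc1 TGFb libraries. FABP4 was at 0.296 and 0.144 CPM in A549 TGFb and at 1.78 and 10.7 CPM in siKLF10+TGFb A and B.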

How the results depend on the processing

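For siKLF10+TGFb against TGFb, 3996 called genes became 2649 with DESeq2, and 2237 to 5409 with 1 library left out. For siKLF10 against siCont, 2758 became 1673 with DESeq2 and 1326 to 1638 with 1 library left out. The interaction count of 916 became 554 with DESeq2 and 379 to 2685 with 1 library left out, and the difference between lines, 2979, became 1895 to 3321. No other alternative moved these counts by over 1.5 times. None reversed the sign of a called gene among 166 named genes, of which 132 kept their call under every alternative for the main comparison.
No label says that a replicate letter pairs A549 libraries. Deviations of same-lettered libraries from their group means correlated at −0.0354 between TGFb and siKLF10+TGFb and at 0.116 between siCont and siKLF10, with the other 4 pairs of groups between. With the letter as a replicate block the 4 counts were 4235, 2973, 1026 and 2985. Library B of siKLF10+TGFb, the deepest, and the 2 libraries per group limit small changes.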
